A study of Mus musculus with 4 samples.

Results

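The genes described here are 10 transcripts of blood vessel endothelium and of its barrier with nerve tissue, taken by symbol from the deposited table: Pecam1, Cdh5, Kdr, Flt1, Tek, Tie1, Cldn5, Slco1a4, Abcb1a and Ly6c1. All 10 were found, each in a single row of the 56035, and all 10 passed the filter, a mean of 1 TPM or more (an abundance corrected for transcript length and scaled to the same total in each library), which left 15390 genes to test. RNA came from the trigeminal ganglion, which holds the cell bodies of the sensory neurons of the face, of male C57BL/6 mice aged 8 weeks. One group was wild-type (WT, 2 libraries) and the other carried the K823R form of the heat- and capsaicin-gated channel TRPV1 (2 libraries), in which a lysine is replaced by arginine. The labels call these animals transgenic in one field and knock-in in another, name the controls as littermates, and give neither the number of allele copies nor how many animals were pooled per library. The p-values therefore describe only the spread between these libraries, which may be technical.

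Endothelial cells line every vessel. They are held together by the adhesion molecules PECAM1 and VE-cadherin and, where a barrier is needed, sealed by the tight junction protein claudin-5. Their growth and rest are set by receptor tyrosine kinases for VEGF (KDR and FLT1) and for angiopoietins (TEK, with the related receptor TIE1), and barrier endothelium adds transporters that take up organic anions or pump drugs back into the blood. Vessels inside a nerve form the blood-nerve barrier together with the perineurium, the cell sheath around the nerve bundle, whereas vessels around sensory nerve cell bodies are known to be more permeable.

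The libraries were similar in most respects, but WT replicate 1 and K823R replicate 1 stood apart in markers of other tissues. Correlations of log2 levels over genes were 0.965 to 0.969 between any 2 libraries. The libraries listed 21838 to 22119 genes above 0, and TPM keeps no read total, so depth and counting error are unknown. Trpv1 itself was at 39.2 and 30.6 TPM (WT) against 40.9 and 35.01 TPM (K823R), which does not check the labels, since TPM does not read an amino acid change. All 10 sensory neuron markers on the list were present in every library, with a summed level of 11910 to 13820 TPM. They do not tell which sensory ganglion was taken. The 8 oligodendrocyte and astrocyte markers summed to 14.8 TPM in WT replicate 1 against 203 TPM in WT replicate 2 and 241 and 294 TPM in K823R. The 10 fibroblast and meningeal markers summed to 343 and 1074 TPM (WT) against 2853 and 903 TPM (K823R). Most of the sum in K823R replicate 1 was Ptgds, at 2374 TPM. Ptgds was at 109 and 577 TPM in the WT libraries and 472 TPM in K823R replicate 2. Results below are given with and without WT replicate 1 where it decides a sign.

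For none of the 10 genes did the difference between the genotypes pass the test. By limma, a linear model with shared variance information, 0 of 10 passed an adjusted p of 0.05 and 0 of 10 had an unadjusted p under 0.05. Over all genes tested, 0.00650% passed the first threshold and 4.76% the second. Adjusted p values of the 10 genes ran from 0.918 to 0.992. On the log2(TPM + 1) scale 9 of 10 were higher in K823R, where 57.4% of all genes were, and the median difference was 0.11 against 0.026 for all genes. WT and K823R values were separated for 2 of 10, Flt1 and Abcb1a, both higher in K823R. Over all genes 34.0% were separated, 19.4% with K823R higher and 14.6% with it lower, so the count of 2 was near the background. Without WT replicate 1 only 4 of 10 were higher in K823R and the median was -0.019.

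**Figure D1:**
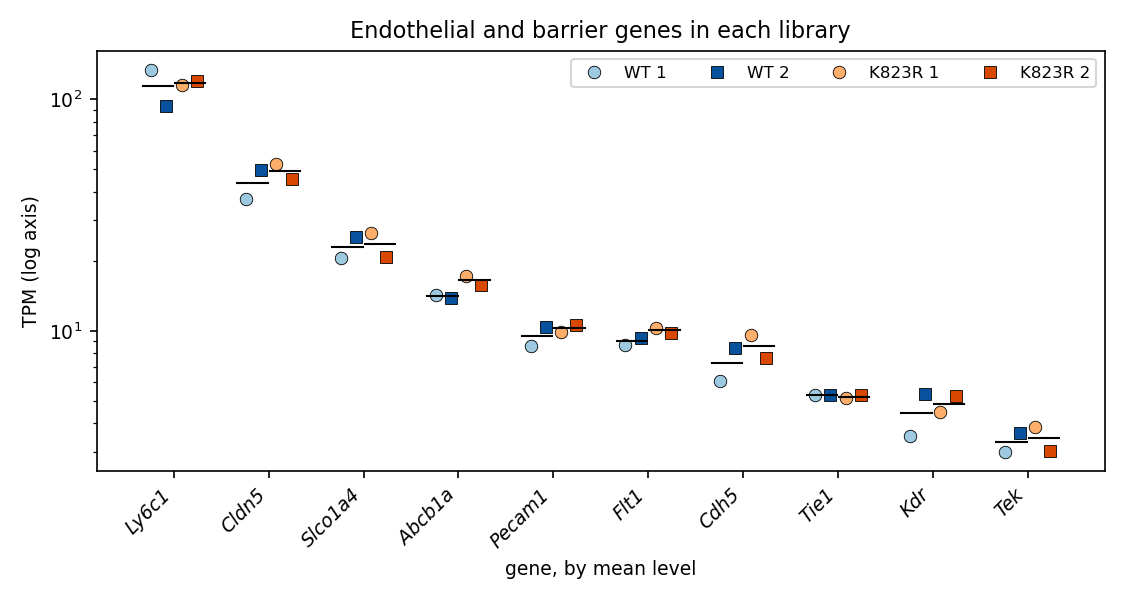
TPM (log axis) of each gene in the 4 libraries, with circles for replicate 1, squares for replicate 2, blue for WT and orange for K823R, and a short line at each group mean. Ly6c1 lies between 94.1 and 134 TPM and Tek between 3.01 and 3.86 TPM, and the groups overlap for every gene except Flt1 and Abcb1a.

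The levels of the 10 genes spanned more than an order of magnitude and kept much the same order in every library. Averaged over the 4 libraries, Ly6c1 was at 116 TPM, Cldn5 at 46.1 TPM, Slco1a4 at 23.4 TPM and Abcb1a at 15.3 TPM. Each of these lay above the next in all 4 libraries with no overlap of their ranges. Pecam1 (9.89 TPM) and Flt1 (9.54 TPM) could not be ordered, with Pecam1 the higher in 2 of 4 libraries. Cdh5 (7.94 TPM) was below Flt1 in 4 of 4 libraries although their ranges overlapped, and Tie1 (5.24 TPM) was below Cdh5 without overlap. Tie1 and Kdr (4.64 TPM) overlapped, with Tie1 higher in 3 of 4 libraries, and Tek was lowest at 3.38 TPM. Among all genes tested, the mean level of Ly6c1 stood at percentile 90.5, that of Cldn5 at 76.9 and that of Tek at 19.1.

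Of the junction and adhesion genes, Pecam1 encodes an immunoglobulin-family adhesion molecule found where endothelial cells meet and also on platelets and leukocytes. In GRCm38 it occupies chromosome 11, 106654217 to 106750628, minus strand, with 16 exons. Pecam1 was at 8.62 and 10.41 in the WT libraries against 9.93 and 10.6 TPM in the K823R libraries. WT replicate 1 was the lowest library and the other 3 lay close together, so the groups overlapped. The means were 9.52 ± 1.27 TPM and 10.3 ± 0.474 TPM (SD, n = 2 each), and the log2 difference was 0.10 (standard error, SE, 0.13, 95% interval -0.24 to 0.45, limma adjusted p = 0.938).

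Cdh5 encodes VE-cadherin, the cadherin of endothelial adherens junctions, at chromosome 8, 104101625 to 104144511, plus strand. Its levels were 6.07 and 8.40 (WT) against 9.61 and 7.66 TPM (K823R). WT replicate 1 was again lowest and K823R replicate 1 highest, while the second replicates lay between them in the opposite order of genotype. Among the 10 genes Cdh5 varied most between libraries, by 1.58-fold from lowest to highest, and had the largest log2 difference, 0.23 (SE 0.20, 95% interval -0.28 to 0.75, limma adjusted p = 0.918).

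Cldn5 encodes claudin-5, the main claudin of barrier endothelium, in a single exon at chromosome 16, 18776847 to 18778262, plus strand. It stood at 37.1 and 49.6 TPM (WT) against 52.5 and 45.3 TPM (K823R), with the libraries in the same order as for Cdh5. The means were 43.3 ± 8.85 TPM and 48.9 ± 5.07 TPM (SD, n = 2 each), and the log2 difference was 0.18 (SE 0.17, 95% interval -0.26 to 0.62, limma adjusted p = 0.927). The ratio of Cldn5 to Cdh5 stayed between 5.46 and 5.91 in 3 libraries and was 6.11 in WT replicate 1. Cldn5 and Cdh5 thus changed nearly in proportion over the 4 libraries. Other junction genes had other orders, with Jup lowest in WT replicate 2 (90.9 TPM) and Jam2 lowest in K823R replicate 2 (21.9 TPM). Without WT replicate 1 the log2 difference of Cldn5 was -0.025 and that of Pecam1 -0.019, while that of Cdh5 was 0.028.

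Kdr encodes VEGF receptor 2, the main signalling receptor for VEGF-A, at chromosome 5, 75932827 to 75978458, minus strand. It was at 3.52 and 5.34 in the WT libraries against 4.45 and 5.25 TPM in the K823R libraries, so both second replicates were higher than both first ones and the groups overlapped. Its log2 difference was 0.12 (SE 0.22, 95% interval -0.45 to 0.70, limma adjusted p = 0.958), and -0.12 without WT replicate 1.

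Flt1 encodes VEGF receptor 1, which binds VEGF-A tightly and in soluble form acts as a decoy, on the minus strand of the same chromosome at 147561604 to 147726011. Flt1 was at 8.69 and 9.34 (WT) against 10.3 and 9.82 TPM (K823R). Both K823R libraries thus lay above both WT libraries, by a margin smaller than the gap between the WT libraries. The means were 9.02 ± 0.460 TPM and 10.1 ± 0.339 TPM (SD, n = 2 each), a ratio of 1.12, and the log2 difference was 0.14 (SE 0.11, 95% interval -0.14 to 0.43, limma adjusted p = 0.918). Flt1 exceeded Kdr in every library, by 2.47-fold and 1.75-fold in WT and by 2.31-fold and 1.87-fold in K823R. This ratio separated replicate 1 from replicate 2 in both groups and did not separate the genotypes.

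Tek encodes the angiopoietin receptor TIE2 and is found at chromosome 4, 94739289 to 94874976, plus strand. Tek was at 3.01 and 3.61 TPM (WT) against 3.86 and 3.03 TPM (K823R), with WT replicate 1 and K823R replicate 2 nearly equal. Its log2 difference was 0.042 (SE 0.19, 95% interval -0.45 to 0.54, limma adjusted p = 0.989), and it was -0.059 without WT replicate 1 and -0.093 without K823R replicate 1. Tie1, an orphan receptor that pairs with TIE2, is found further along the same chromosome, at 118471191 to 118490061, minus strand. Tie1 was nearly constant, at 5.26 and 5.29 in the WT libraries against 5.15 and 5.26 TPM in the K823R libraries. The highest library exceeded the lowest by 1.03-fold, the narrowest range among the 10 genes, and the log2 difference was -0.016 (SE 0.13, 95% interval -0.35 to 0.32, limma adjusted p = 0.992). That interval is wider than the scatter of the 4 values, because limma sets each gene's variance partly from genes of similar level.

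**Figure D2:**
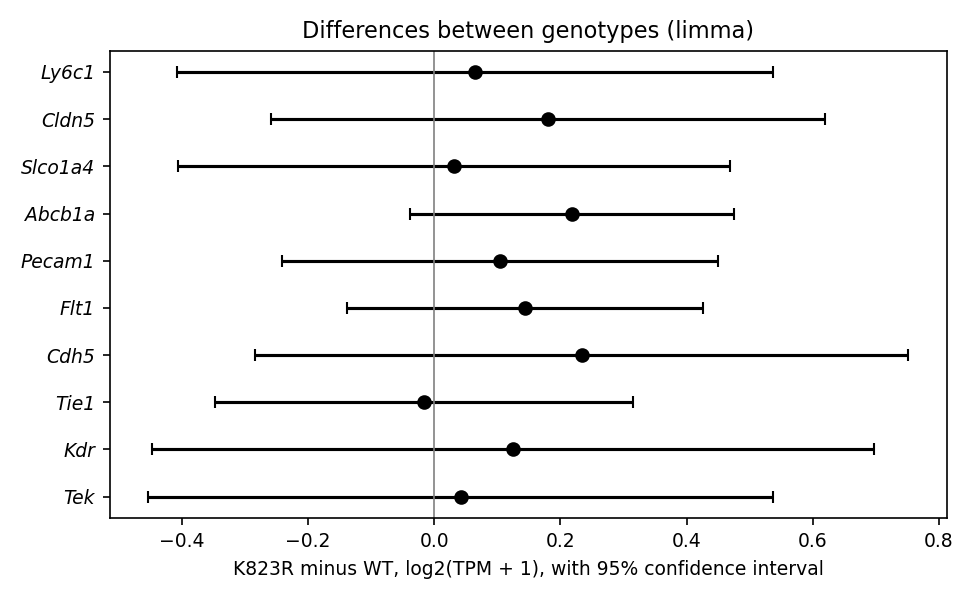
Difference between K823R and WT for each gene on the log2(TPM + 1) scale (horizontal axis), with its 95% confidence interval from limma. The points lie between -0.016 for Tie1 and 0.23 for Cdh5, and every interval includes 0.

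Both barrier transporters were more abundant than the receptors. Slco1a4 encodes an organic anion uptake carrier of barrier endothelium and occupies chromosome 6, 141805440 to 141856199, minus strand. Its levels were 20.6 and 25.5 (WT) against 26.5 and 20.8 TPM (K823R). The first K823R library was close to the second WT library and the second K823R library to the first WT library, so the groups covered the same range. The log2 difference was 0.032 (SE 0.17, 95% interval -0.41 to 0.47, limma adjusted p = 0.989), and it was -0.12 without WT replicate 1 and -0.14 without K823R replicate 1.

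Abcb1a encodes P-glycoprotein, the efflux pump that returns lipophilic drugs to the blood, and occupies chromosome 5, 8660077 to 8748575, plus strand. Abcb1a was at 14.3 and 13.9 TPM (WT) against 17.3 and 15.9 TPM (K823R). The lower K823R library stood above the higher WT library, and the WT libraries differed from each other by less than this gap. The means were 14.1 ± 0.325 TPM and 16.6 ± 1.03 TPM (SD, n = 2 each), a ratio of 1.18. The log2 difference was 0.22 (SE 0.10, 95% interval -0.039 to 0.48), with the smallest unadjusted p of the 10 genes, 0.0801, and a limma adjusted p of 0.918. It was between 0.16 and 0.28 in the 12 alternatives tried, and with all 4 libraries its limma adjusted p was at least 0.748 (replicate block). Because the groups did not overlap, leaving out a library could not change its sign. The filters, the replicate block and the variance setting leave the difference as it is, so only the scalings could have changed the sign.

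Ly6c1 encodes a small lipid-anchored surface protein of the Ly6 family that is abundant on endothelium and is shared with some leukocytes. Its gene is found at chromosome 15, 75044018 to 75048830, minus strand. Ly6c1 was at 134 and 94.1 in the WT libraries against 115 and 120 TPM in the K823R libraries, so the WT libraries enclosed the K823R libraries. Its log2 difference was 0.065 (SE 0.18, 95% interval -0.41 to 0.54, limma adjusted p = 0.977). It was 0.32 without WT replicate 1, where the unadjusted p was under 0.05 for this 1 of the 10 genes (adjusted p = 0.656), and -0.19 without WT replicate 2.

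Ly6c1 was the 1 gene of the 10 that was highest in WT replicate 1, where 7 were lowest. Of the 30 further endothelial markers tested, 8 were also highest there. The order of the libraries for Ly6c1 was WT replicate 1, then K823R replicate 2, K823R replicate 1 and WT replicate 2. The endothelial genes Egfl7 (71, 68.9, 67.4 and 66.6 TPM) and Ackr1 (107, 106, 103 and 89.5 TPM) are named here because they had the same order. How many other genes share it was not counted. Ecscr, another abundant endothelial marker, was lowest in WT replicate 1 (34.5 TPM) and highest in K823R replicate 2 (44.8 TPM). The summed platelet and erythroid markers also had the order of Ly6c1 (506, 357, 334 and 263 TPM). That sum is mostly globin, with Hbb-bs at a mean of 137 TPM and Hba-a2 at 134 TPM. Pf4, on the same list, was lowest in WT replicate 1 (4.23 TPM) and highest in K823R replicate 2 (10.02 TPM). The leukocyte marker Csf1r was also lowest (2.99 TPM) and highest (8.56 TPM) in these libraries. Of the 7 leukocyte markers tested, WT replicate 1 was lowest for 4 and K823R replicate 2 highest for 4. The platelet genes Ppbp and Gp9 were at most 0.5 and 0.12 TPM, while Itga2b and Gp1bb, on the same list, had means of 6.78 and 3.07 TPM. Whether the level of Pf4 is platelet content was not tested. The part of blood content in the Ly6c1 values was not tested. Leukocyte markers were low, at a summed 15.7 and 22.2 (WT) against 19.0 and 26.5 TPM (K823R) over 14 genes. Ptprc, the pan-leukocyte antigen, was at most 0.75 TPM, and the B cell marker Ms4a1 was listed at 0 in 3 libraries.

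Reads of Ly6c1 can also match its neighbour Ly6c2, the monocyte form, and the opening stretches of both coding sequences are shown to let the similarity be seen (GENCODE M21 transcripts, bases 1 to 150 from the start codon, differing bases in capitals).
Ly6c1: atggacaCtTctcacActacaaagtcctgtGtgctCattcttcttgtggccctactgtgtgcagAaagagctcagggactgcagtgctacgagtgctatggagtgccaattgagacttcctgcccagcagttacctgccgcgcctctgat
Ly6c2: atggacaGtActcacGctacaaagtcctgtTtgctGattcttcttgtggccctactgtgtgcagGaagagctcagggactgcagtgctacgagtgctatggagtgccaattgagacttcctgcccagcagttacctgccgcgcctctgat
The stretches differ at 6 of 150 bases. Over 386 aligned coding bases the genes were 93.8% identical, with an identical run of 188 bases, longer than a read of 150 bases. Ly6c2 was nevertheless listed at only 0.36 to 1.11 TPM, and Ly6c1 exceeded it by 121-fold to 261-fold, so the total of both genes is set almost wholly by the reads given to Ly6c1. How the authors' software divided shared reads is not given in the sources used here, and the split between the pair is uncertain.

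Other members also have relatives with which reads could be shared. Abcb1a and Abcb1b, which encodes a second P-glycoprotein, were 88.2% identical over 3816 coding bases with an identical run of 338 bases, and Abcb1b stood at 1.54 and 1.33 TPM (WT) against 0.69 and 1.65 TPM (K823R). Slco1a4 was 85.3% to 89.4% identical to Slco1a1, Slco1a5 and Slco1a6, none of which exceeded 1.37 TPM in any library. Kdr and Flt1 were 64.6% identical and Tek and Tie1 65.3%. No member had a transcript of another gene that matched at least 90% of its length at 95% identity or more.

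Across the 10 genes the libraries were not equally placed. WT replicate 1 was the lowest library for 7 of 10 (Pecam1, Cdh5, Kdr, Flt1, Tek, Cldn5 and Slco1a4), while it was lowest for 22.0% of all genes tested. K823R replicate 1 was the highest for 6 of 10, against 32.9% of all genes. Among the 30 further endothelial markers tested, WT replicate 1 was lowest for 8 and WT replicate 2 for 12, and K823R replicate 1 was highest for 12. Fewer endothelial cells in a library and less RNA per cell cannot be told apart in bulk tissue, and the markers of central glia and fibroblasts that were low in WT replicate 1 moved in the same direction. Their part in the result was not tested.

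**Figure D3:**
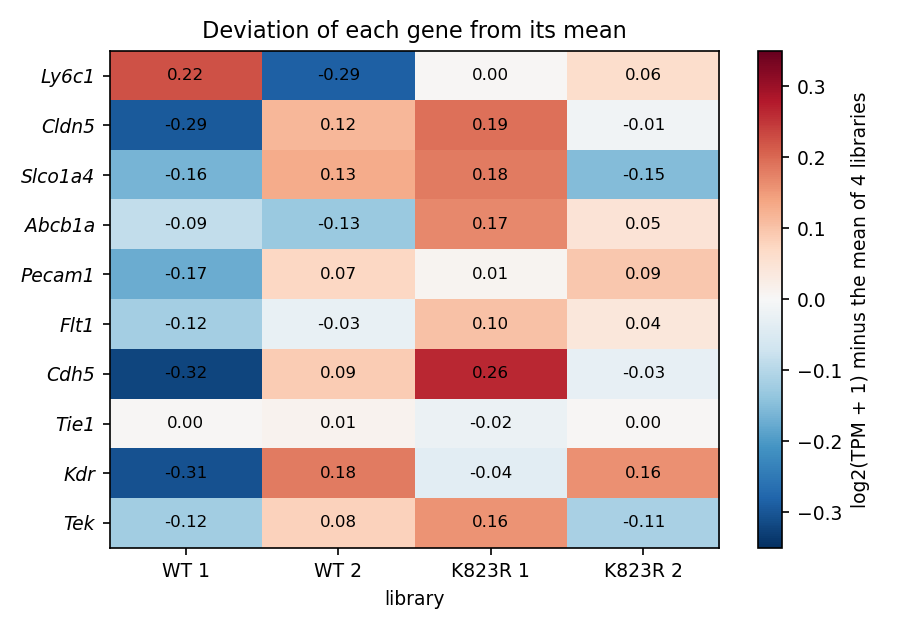
Deviation of each gene (rows, by mean level) in each library (columns) from its mean over the 4 libraries, on the log2(TPM + 1) scale, with blue for lower and red for higher. WT replicate 1 is lowest for 7 of the 10 genes, Ly6c1 has the opposite sign there, and Tie1 deviates from its mean by at most -0.021.

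The deposited annotation shows what the members share besides expression in vessels. All 10 carry the term plasma membrane, as do 18.9% of the genes tested, and 7 carry cell surface (3.13%). Positive regulation of angiogenesis was attached to 5, Cdh5, Flt1, Kdr, Tek and Tie1, and to 0.663% of all genes. Transmembrane receptor tyrosine kinase activity was listed for 4, Flt1, Kdr, Tek and Tie1, and the pathway of leukocyte passage through endothelium for 3, Cdh5, Cldn5 and Pecam1.

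Promoters of a receptor and a junction gene are shown because the RefSeq start site (GRCm38.p6) equals the GENCODE start for both, and Flt1 was a member whose groups did not overlap. Each run is the 250 bases before the start site on the gene's strand, with the cores AGGAAG and CGGAAG on either strand, which ETS factors of endothelium can bind, in capitals. The Flt1 window is chr5:147726012-147726261 (minus strand) and the Cldn5 window chr16:18776597-18776846 (plus strand).
Flt1: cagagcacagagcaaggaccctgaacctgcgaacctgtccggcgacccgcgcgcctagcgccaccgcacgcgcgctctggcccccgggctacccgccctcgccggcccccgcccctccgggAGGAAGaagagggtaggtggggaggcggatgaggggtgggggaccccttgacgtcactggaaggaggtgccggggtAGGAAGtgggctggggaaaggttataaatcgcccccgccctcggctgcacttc
Cldn5: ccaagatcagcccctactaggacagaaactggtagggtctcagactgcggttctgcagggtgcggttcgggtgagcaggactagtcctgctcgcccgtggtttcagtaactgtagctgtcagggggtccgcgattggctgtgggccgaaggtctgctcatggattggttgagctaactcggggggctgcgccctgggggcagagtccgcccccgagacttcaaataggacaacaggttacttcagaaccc
Flt1 holds 2 such cores and Cldn5 has none in this window. Tek, a receptor gene whose start sites also match, had 0 cores in its window. Ly6c1 had 2 overlapping windows, 1 with 3 cores and 1 with 0. A promoter was found for 8 of the 10 genes, and 5 of their 9 windows held a core, against 39.2% of 32851 RefSeq windows. The Abcb1a window, 1 of those 5, lies 92986 bases from the GENCODE start of the gene, and without it the count is 4 of 8. The GC box GGGCGG, on either strand, was in 3 of 9 windows against 32.7% of all. GC content was 70.4% for Flt1 and 59.6% for Cldn5. A match describes the letters only.

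Ligands and partners of the member receptors were tested for 9 genes, and 0 of 9 passed limma, with 1 at an unadjusted p under 0.05. Of the 9, 6 were higher in K823R and 3 lower, with a median log2 difference of 0.10. WT and K823R values were separated for 4 with K823R higher and 2 with it lower, where 19.4% and 14.6% of all genes were. Vegfb, a ligand of FLT1, was the most abundant at 53.2 and 52.2 in the WT libraries against 56.8 and 56.6 TPM in the K823R libraries. Vegfa, the ligand of both VEGF receptors, was at 25.2 and 23.2 (WT) against 26.6 and 31.0 TPM (K823R). For both ligands the K823R libraries lay above the WT libraries, with log2 differences of 0.10 (SE 0.07) and 0.24 (SE 0.11) and limma adjusted p = 0.918 for each. Pgf, the placental growth factor that binds FLT1 alone, was at 9.69 and 11.4 TPM (WT) against 10.02 and 11.7 TPM (K823R), so the groups overlapped.

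Both angiopoietins tested had negative differences. Angpt2, the context-dependent antagonist of TIE2, was at 21.9 and 20.03 in the WT libraries against 17.3 and 18.3 TPM in the K823R libraries (log2 difference -0.22, SE 0.10, limma adjusted p = 0.918). Angpt1, the TIE2 agonist, was scarcer at 2.10 and 1.57 (WT) against 1.55 and 1.24 TPM (K823R) (log2 difference -0.24, SE 0.24, limma adjusted p = 0.935). Both K823R libraries were below both WT libraries for each, and neither passed. Ptprb, the phosphatase that restrains TIE2, was at a mean of 2.86 TPM over the libraries with a log2 difference of -0.0056.

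Among the co-receptors Nrp2 had the smallest p, at 19.7 and 20.8 TPM (WT) against 24.3 and 23.7 TPM (K823R) (log2 difference 0.23, SE 0.09, unadjusted p = 0.0449, limma adjusted p = 0.918). Neuropilins are also made by neurons and glia, so their level is not that of vessels alone. Nrp1 was at 19.3 and 17.3 in the WT libraries against 20.7 and 18.9 TPM in the K823R libraries, with the groups overlapping. The lymphatic receptor Flt4 was at most 0.77 TPM and its ligand Vegfc at most 0.96 TPM, both under the level needed for testing. The other lymphatic ligand Vegfd was at 0.56 to 1.35 TPM.

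**Figure D4:**
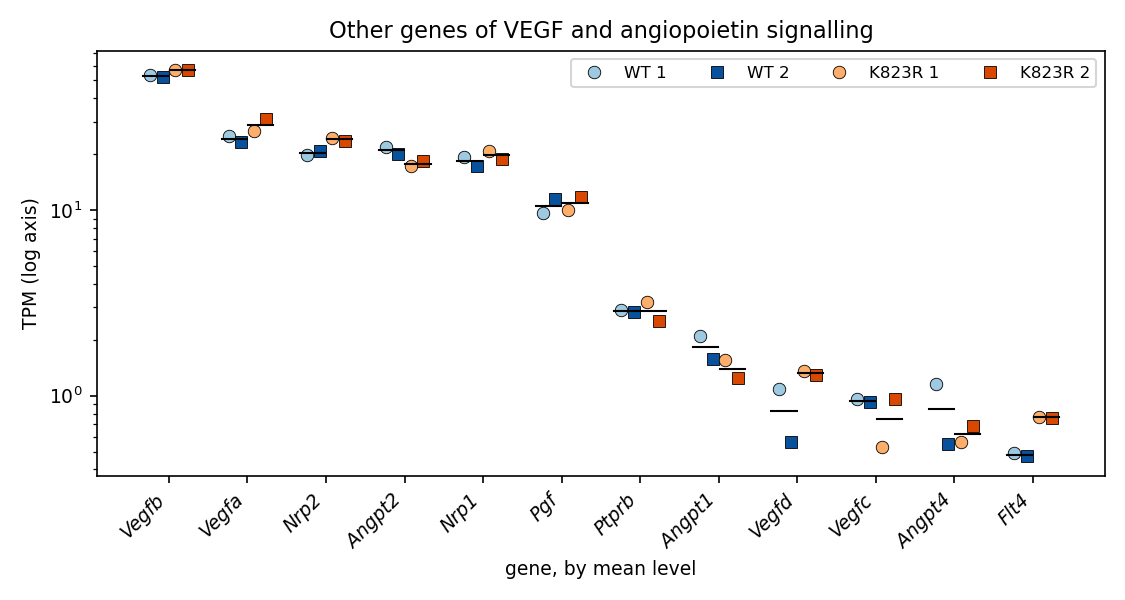
TPM (log axis) of the other genes of VEGF and angiopoietin signalling in the 4 libraries, with circles for replicate 1, squares for replicate 2, blue for WT, orange for K823R and a short line at each group mean. Vegfb is highest at 52.2 to 56.8 TPM, and the K823R libraries lie above WT for Vegfa and Vegfb and below WT for Angpt1 and Angpt2.

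Further endothelial markers also stayed short of the threshold. Of 30 tested, 19 were higher in K823R and 11 lower, with a median log2 difference of 0.085, 0 passed limma, and 1 had an unadjusted p under 0.05. Leaving out WT replicate 1 gave a median of 0.13 and leaving out K823R replicate 1 gave 0.024. It was 0.024 over the 12 genes with a mean of 10 TPM or more and 0.042 under quantile normalization. That gene was Nostrin, which encodes a protein that moves endothelial nitric oxide synthase away from the membrane. Nostrin was at 5.20 and 4.21 (WT) against 2.87 and 2.71 TPM (K823R) (log2 difference -0.58, SE 0.17, limma adjusted p = 0.918). Robo4, a guidance receptor that stabilises vessels, was at 3.02 and 2.49 TPM (WT) against 4.42 and 3.44 TPM (K823R), with the same adjusted p. Egfl7, a secreted factor of endothelium, was the most abundant at a mean of 68.5 TPM and a log2 difference of -0.012. Plvap, chosen after its values were seen, forms the diaphragms of permeable vessels and was at 1.80 and 2.10 in the WT libraries against 3.11 and 2.25 TPM in the K823R libraries, far below Cldn5 in every library.

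Along the vessel tree, arterial and venous markers were both present. Of 9 arterial genes 3 were higher in K823R and 6 lower (median -0.028), and the transcription factor Sox17 was at 17.4 and 13.5 (WT) against 13.1 and 11.96 TPM (K823R) (limma adjusted p = 0.918). Leaving out WT replicate 1 gave the arterial genes a median of 0.042, leaving out WT replicate 2 gave -0.080, and leaving out K823R replicate 1 gave 0.0063. It was -0.060 to -0.044 under the 3 other scalings, median-of-ratios, upper-quartile and quantile. Of 6 venous genes 5 were higher (median 0.21), with 0 past the adjusted threshold and 1 with an unadjusted p under 0.05. Without K823R replicate 1, 4 of 6 were higher with a median of 0.12, and the 3 with a mean of 10 TPM or more had a median of 0.096. Nr2f2, the transcription factor of venous identity, was that gene, at 30.5 and 32.3 TPM (WT) against 38.2 and 36.8 TPM (K823R) (log2 difference 0.25, SE 0.08, limma adjusted p = 0.918). Ackr1, the chemokine-binding receptor of venules, was the most abundant at a mean of 102 TPM, close to the level of Ly6c1, and its groups overlapped. Whether arterial and venous genes differ from each other was not tested. Of 4 lymphatic markers tested 3 were higher in K823R (median 0.096, between 0.046 and 0.27 with a library left out), with 0 past the adjusted threshold and 1 with an unadjusted p under 0.05. Ccl21a, a chemokine of lymphatic endothelium, was that gene, at 2.69 and 1.56 TPM (WT) against 5.5 and 6.43 TPM (K823R) (log2 difference 1.18, SE 0.24, limma adjusted p = 0.918). The table holds a second row of that symbol, so how reads were divided between copies is uncertain. Reln and Pdpn, which other cells also make, were the most abundant at means of 53.1 and 21.8 TPM, Lyve1 was at a mean of 2.45 TPM, Prox1, the regulator of lymphatic identity, was at most 0.4 TPM, and Mmrn1 was listed at 0 in every library.

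Genes of junctions, barrier transport, barrier signalling and perineurium were grouped by function, and a few stand in more than 1 group. The groups are not limited to genes of vessels. Among 17 junction genes 15 were higher in K823R with a median of 0.19, and 0 had an unadjusted p under 0.05. F11r, the junctional adhesion molecule JAM-A, was at 5.31 and 4.87 in the WT libraries against 8.11 and 5.88 TPM in the K823R libraries (limma adjusted p = 0.918). Cldn19, a claudin of myelinating Schwann cells and not of vessels, exceeded Cldn5 with a mean of 132 TPM. Without WT replicate 1, which was lowest for 10 of these 17 genes, the median was 0.066 and 11 were higher. Under median-of-ratios and upper-quartile scaling 14 were higher, and under quantile normalization 13 were, with a median of 0.16.

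For barrier transport, 15 of 21 genes were higher in K823R with a median of 0.042. Leaving out WT replicate 1 gave a median of 0.12 and leaving out K823R replicate 2 gave 0.13. It was 0.020 to 0.026 under the 3 other scalings, and 12 were higher without WT replicate 2 or without K823R replicate 1. The limma test called 0 of them, and 0 had an unadjusted p under 0.05. Slco1c1, a thyroid hormone carrier of barrier endothelium, had the smallest p at 2.02 and 3.06 (WT) against 4.16 and 4.05 TPM (K823R) (log2 difference 0.54, SE 0.21, limma adjusted p = 0.918). Slc3a2, the heavy chain of an amino acid exchanger that neurons and glia also use, was the most abundant at a mean of 149 TPM.

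Wnt and Norrin signals instruct endothelium to form a barrier. Of 13 such genes 8 were higher and 5 lower with a median of 0.023, and 0 had an unadjusted p under 0.05. With a library left out the median ranged from 0.0012 (WT replicate 1) to 0.097 (WT replicate 2), with 0.071 when K823R replicate 2 was dropped. It was between -0.018 (quantile normalization) and 0.0096 under the 3 other scalings and 0.0023 over the 3 genes with a mean of 10 TPM or more. Ndp, which encodes Norrin, was at 20.01 and 17.4 TPM (WT) against 21.0 and 23.4 TPM (K823R) (limma adjusted p = 0.918). Wnt7b was listed at 0.2 TPM or less in every library.

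Perineurial cells form the outer part of the barrier. All 7 of their markers tested were higher in K823R (median 0.21), but 6 of 7 under median-of-ratios, upper-quartile and quantile scaling and 5 of 7 without WT replicate 2 or without K823R replicate 1. The median was 0.058 without K823R replicate 1 and 0.026 over the 3 genes with a mean of 10 TPM or more. By limma 0 passed, and 1 had an unadjusted p under 0.05. Lypd2, a Ly6-family gene, was that gene, with an unadjusted p of 0.00368 and levels of 0.62 and 1.16 in the WT libraries against 5.29 and 3.50 TPM in the K823R libraries (log2 difference 1.51, SE 0.28, limma adjusted p = 0.918). Itgb4, the integrin of the perineurial and epithelial basement membrane, was at 19.5 and 25.3 (WT) against 27.7 and 32.9 TPM (K823R). Slc2a1, the glucose carrier GLUT1 shared by perineurium and barrier endothelium, overlapped between groups at a mean of 46.3 TPM.

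Of 13 markers of mural cells, which wrap the endothelium, 9 were higher in K823R (median 0.19), with 0 past the adjusted threshold and 2 with an unadjusted p under 0.05. Without K823R replicate 1, 7 were higher with a median of 0.10. Notch3, a receptor of smooth muscle and pericytes, was at 1.99 and 2.45 TPM (WT) against 5.86 and 4.50 TPM (K823R) (log2 difference 0.94, SE 0.20, limma adjusted p = 0.918). The pericyte gene Rgs5 was the most abundant of the list at a mean of 54.3 TPM with a log2 difference of -0.058. Summed over the list, mural markers stood at 125 and 140 in the WT libraries against 178 and 141 TPM in the K823R libraries. Much of the excess in K823R replicate 1 was Vtn, at 38.7 TPM there. Vtn was at 12.03 and 15.6 TPM in WT and 15.4 TPM in K823R replicate 2. By count, K823R replicate 1 was highest for 8 of the 13 mural markers and 6 of the 10 endothelial genes.

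**Figure D5:**
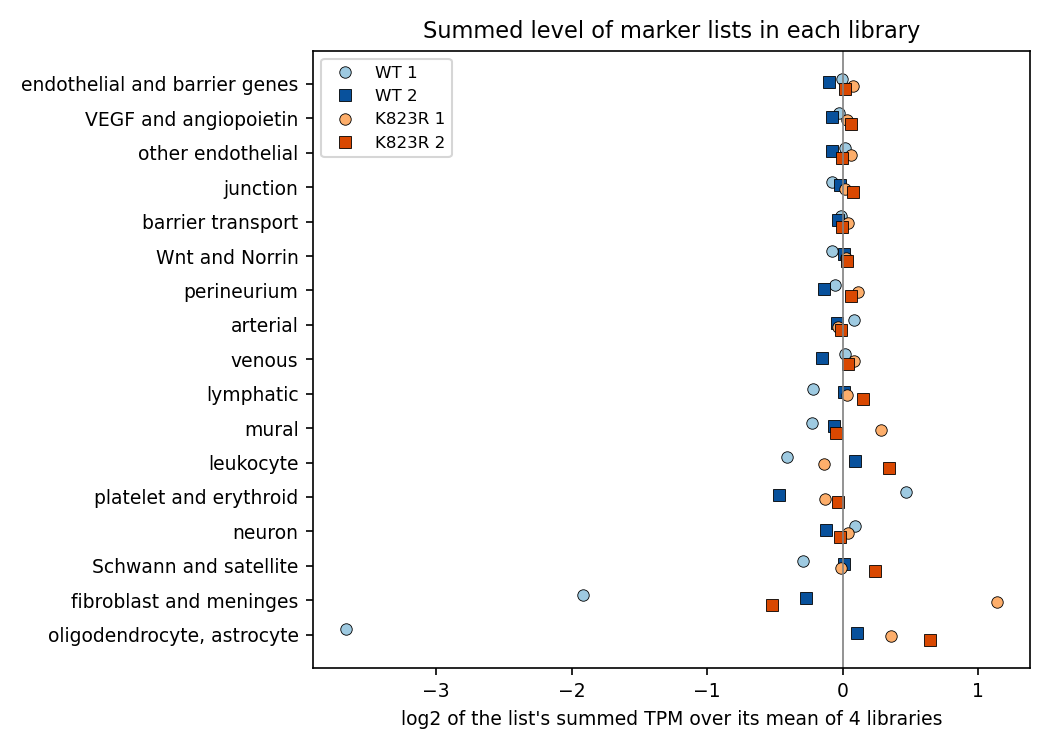
Summed TPM of each marker list in each library, as log2 of its ratio to the list's mean over the 4 libraries (horizontal axis), with circles for replicate 1, squares for replicate 2, blue for WT and orange for K823R. The endothelial and barrier genes stay near 0 (225 to 255 TPM), while the oligodendrocyte and astrocyte list is at 14.8 TPM in WT replicate 1 and the fibroblast list spans 343 to 2853 TPM. Ly6c1 alone gives 94.1 to 134 TPM of the endothelial sum and is highest in WT replicate 1, where most other members are lowest.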

How the data were processed

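Poly(A) RNA of 4 trigeminal ganglion libraries (2 WT, 2 K823R, grouped by title) was sequenced from both fragment ends, per the labels' protocols. Tools named in the submitters' processing notes, without roles, are edgeR, RSEM, HISAT2 and fastp 0.19.5, with build GRCm38.p6. The deposited values are TPM per gene. TPM removes transcript length and library total, so an abundant transcript lowers all others and depth is unknown. The authors' gene length and group mean columns gave no result here.

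The test was limma 3.58.1 (R 4.3.3) with a variance trend on log2(TPM + 1), two-sided, over 15390 genes (mean 1 TPM or more), Benjamini-Hochberg adjusted over all of them with a threshold of 0.05. In simulated data it was tried only on planted differences far larger than those of the members. Whether it would find differences of their size was not tested. Fold changes on this scale understate low genes. The 10 members and the gene lists were chosen with earlier results of these data known. All members, their paralogues and the tested VEGF and angiopoietin genes could be named, and from each other list up to 3 genes with the smallest p and up to 2 with the highest mean. Plvap, Prox1, Mmrn1, Flt4, Vegfc, Wnt7b, Ptprc, Ms4a1, Jup, Jam2, Ppbp, Gp9 and Gp1bb were named after their values were seen. Lists are described by counts and medians only. Sequence searches used BLAST 2.17.0 and Biopython 1.88, coordinates GENCODE M21 (GRCm38), and promoters RefSeq. Alternatives were another pseudocount, filters, scalings, no trend, a replicate block and leaving out each library. An exact match of symbols gave the list rows, and older symbols absent from the table were dropped.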

Additional observations from a re-analysis of the deposited data

How the results depend on the processing

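No member passed limma in any of the 12 alternatives, and adjusted p ranged from 0.656 to 1. The members' median log2 difference of 0.114 ranged from -0.0194 (without WT replicate 1) to 0.193 (without WT replicate 2) with a library left out, and from 0.0618 (quantile normalization) to 0.133 (pseudocount of 0.1 TPM) otherwise. With a mean of at least 10 TPM only 4 members were tested. With a library left out, differences turned negative for Pecam1 (-0.0191 to 0.227), Kdr (-0.119 to 0.369), Tek (-0.0934 to 0.177), Cldn5 (-0.0246 to 0.386), Slco1a4 (-0.135 to 0.198) and Ly6c1 (-0.19 to 0.319). Those of Cdh5, Flt1, Tie1 and Abcb1a kept their sign in each alternative in which they were tested. For Flt1 and Abcb1a, whose groups did not overlap, leaving out a library could not have changed it. The filters, the replicate block and the variance setting do not alter the difference of any member. The causes were not tested. Over all genes, the 1 called became 2 with at least 10 TPM, and 0 with no filter, with no variance trend, with the replicate block and without any one library. The lone library left in a group is then assumed to vary like the others. Replicate numbers are shared between the groups, but same-numbered libraries deviated together with a correlation of only 0.05 over genes, so they are not taken as pairs. With the replicate block 0 members passed and the members' median stayed 0.114. TPM gives no depth, so counting error could not be set apart from the spread between libraries.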
